A study of Mus musculus with 3 samples.

Results

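Solute carriers are membrane proteins that move amino acids, sugars, ions, metals, nucleosides, vitamins and lipids into and out of cells and organelles. They fall into numbered families that share a fold or a kind of substrate, and most work as uniporters, symporters or exchangers driven by gradients that the sodium pump and the proton pumps maintain. In the lung they supply alveolar and endothelial cells with amino acids and metals, move chloride and bicarbonate across airway epithelium, and feed energy metabolism through the inner mitochondrial membrane. The genes described here are those whose symbol has the solute carrier form, Slc followed by a family number, a letter and a member number; Slc34a2 and Slc4a1 were left out. Of the 8251 genes with a single symbol on the array, 148 met this rule, in 39 families. The symbols Slc9a3r1, Slc9a3r2 and Slc4a1ap also have this form, although they name proteins that bind carriers and are not carriers themselves. Because they meet the rule, they are counted with the carriers below.

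The tumour-bearing lungs came from mice given tumour cells under the skin of the back, as a model of a lung that responds to a distant tumour before tumour cells reach it. One RNA sample came from lung of B16-bearing mice (B16 is a mouse melanoma line), one from lung of LLC-bearing mice (LLC is the Lewis lung carcinoma line), and one from normal mouse lung as control; they are called the B16, LLC and control lung below. The labels give no strain, age, time after injection or number of animals for any group. Each group had 1 array, so no difference below has a replicate check or a p-value, and all values describe these 3 arrays and not the conditions. In whole lung, fewer cells of a type and less RNA per cell cannot be told apart.

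The values are scaled array signals in arbitrary units. A floor of 23.6, the 40th percentile over all probe sets and arrays after scaling, replaced any lower value before log2 was taken, and where the dimmer side lay below it the fold is given as "at least". A gene counts as measured in a comparison when 1 or both of its signals lay above the floor. The floor is no detection call, and because a signal depends on its probes, no gene's signal is set against that of another gene. The only spread that does not compare with the control array is that between the tumour-bearing lungs. Over all genes above the floor on both, the robust SD of the log2 difference was 0.49 at mean signals from 50 to 100, 0.40 from 100 to 200, 0.31 from 200 to 500 and 0.26 from 500 upwards. At least 2-fold apart were 9.88%, 6.32%, 2.86% and 0.768% of genes in these ranges.

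As a set, the solute carrier genes varied about as much over the 3 arrays as other genes did. Of the 148 genes, 86 lay above the floor on all arrays (58.1%, against 62.2% of all genes), and 36 lay below it on all. Among the 86, the highest signal was less than 1.25-fold the lowest for 34, or 39.5%, against 35.4% of all genes. It was at least 2-fold the lowest for 9, or 10.5%, against 10.2%. The median ratio of highest to lowest was 1.33 for the carriers and 1.34 for all genes. The gene with the smallest ratio was Slc39a7, which encodes a zinc carrier of the endoplasmic reticulum, with signals of 262 in the B16, 261 in the LLC and 259 in the control lung. Slc35b1, a nucleotide carrier of the endoplasmic reticulum, read 452, 480 and 453 in the same order, and Slc4a2, a chloride-bicarbonate exchanger, 113, 105 and 108.

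In number, 7 of 108 measured carriers were at least 2-fold higher in the B16 than in the control lung, against 3.23% of all measured genes, and 2 were at least 2-fold lower, against 4.73%. In the LLC lung 5 of 104 were at least 2-fold higher, against 3.95% of all genes, and 2 were lower, against 2.98%. Between the tumour-bearing lungs, 5 of 110 were at least 2-fold higher in the B16 lung, against 3.41%, and 3 were lower, against 4.95%. The median log2 differences of the carriers were 0.04, 0.06 and −0.06 in these comparisons, and those of all genes −0.01, −0.00047 and −0.02. Above the other lung were 61 of 108, 61 of 104 and 52 of 110 carriers, against 49.3%, 49.9% and 47.7% of all genes. Both comparisons with the control lung use the same control array, so a deviation of that array enters both. With a floor at a signal of 100, the carriers at least 2-fold higher numbered 1, 0 and 1 and those lower 0, 0 and 0, each of these genes having at least 1 signal below 100. The 1 gene was Slc9a3r2 both times, which encodes a scaffold and not a carrier.

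**Figure D1:**
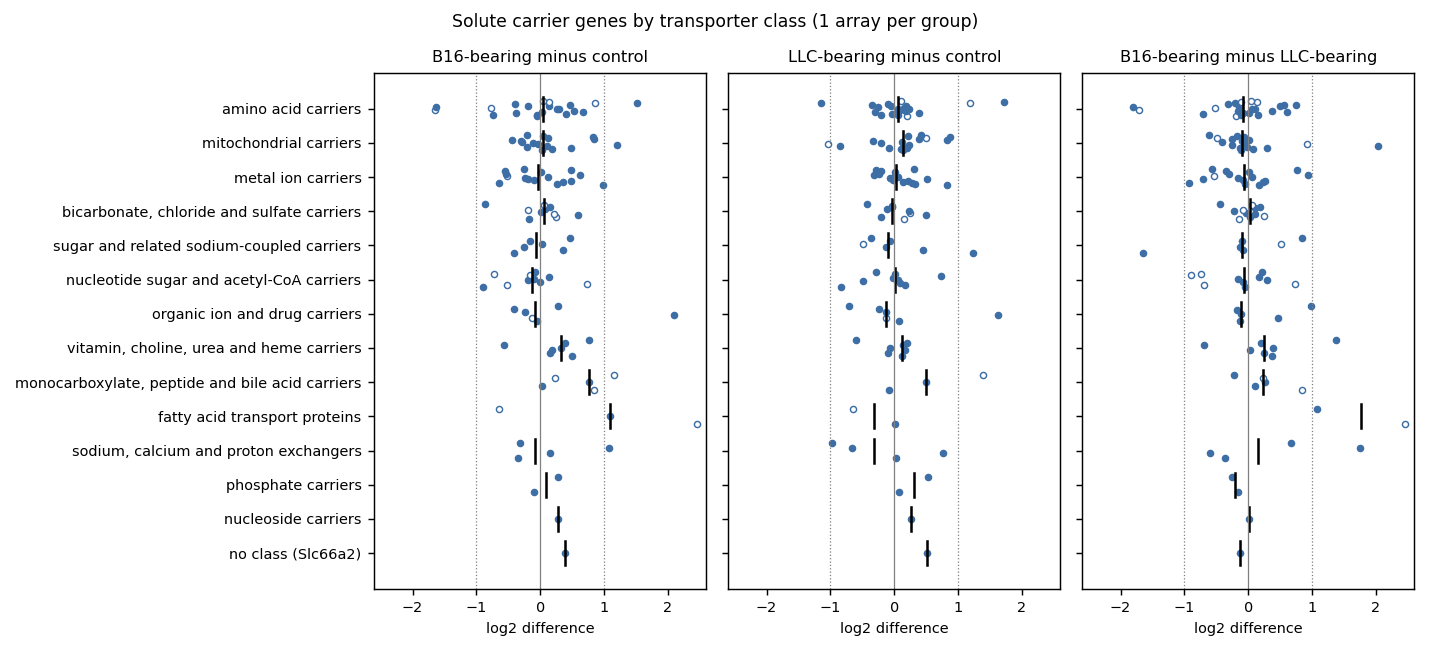
Log2 differences of the measured solute carrier genes by transporter class for the B16 minus control, LLC minus control and B16 minus LLC lung (x axes, log2 units). Each point is 1 gene, open points are bounds with 1 side below the floor, black bars are class medians and dotted lines mark 2-fold; most points lie inside the dotted lines, and the largest difference is the bound of 2.45 for Slc27a1.

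Amino acid carriers were the largest class, with 31 genes, of which 16 lay above the floor on all 3 arrays. Slc7a5, which encodes LAT1, the exchanger that imports leucine and other large neutral amino acids, had signals of 151 in the B16, 174 in the LLC and 53.0 in the control lung. Both tumour-bearing lungs were thus above the control lung, by 2.84-fold and 3.28-fold (log2 differences of 1.51 and 1.71), and close to each other (−0.21). With the floor at the 60th percentile these differences were 1.08 and 1.29, and with a floor of 100 they were 0.59 and 0.80. Slc3a2, which encodes the CD98 heavy chain that LAT1 needs to reach the cell surface, read 908, 701 and 629. It was highest in the B16 lung, 1.44-fold above control, and 1.11-fold above control in the LLC lung. Slc7a2, a carrier of arginine and other cationic amino acids, read 42.7 and 53.5, and lay under the floor in the control lung, so that the tumour-bearing lungs were at least 1.81-fold and 2.27-fold higher. The other genes of the Slc7 family, among them Slc7a11 (the cystine-glutamate exchanger), Slc7a1, Slc7a3 and Slc7a8, reached at most 25.9 on any array.

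The sodium-coupled Slc6 family held the carriers that were lower in the B16 lung. Slc6a12, which encodes a betaine and GABA carrier, had signals of 77.6 in the LLC and 74.2 in the control lung and lay below the floor in the B16 lung, at least 3.14-fold below control and 3.29-fold below the LLC lung. Slc6a20b, from the imino acid branch of the family, read 26.5 in the B16 against 92.9 in the LLC and 82.1 in the control lung. It was 3.51-fold below the LLC and 3.10-fold below the control lung. These were the only 2 carriers at least 2-fold lower in the B16 than in the control lung, and in the LLC lung both were within 1.13-fold of control. Slc6a9, the glycine carrier GLYT1, showed another order, with 110 in the B16, 65.7 in the LLC and 146 in the control lung, 2.23-fold lower in the LLC lung than in control (−1.15). With a floor of 100 this difference was −0.55. A floor at the 60th percentile gave B16 minus control differences of −0.06 for Slc6a12 and −0.20 for Slc6a20b, and all signals of both genes were below 100.

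Other amino acid carriers with bright probe sets differed less. Slc6a6, the taurine carrier, read 428, 305 and 390 in the B16, LLC and control lung, but its second probe set read 81.5, 150 and 115.5, with the opposite order of the tumour-bearing lungs. Slc38a5, a glutamine carrier, read 363, 405 and 355, and Slc38a2, a neutral amino acid carrier that many cells raise when amino acids are short, 253, 267 and 329. Slc1a5, the glutamine carrier ASCT2, was level at 104, 112 and 108. Slc6a4, the serotonin carrier through which lung endothelium clears serotonin, read 93.3, 104 and 107 on a probe set with a suffix for looser probe selection. Its other probe set, of standard design, read 11.9, 41.4 and 15.2, above the floor in the LLC lung alone. Over the class, 12 of 21 measured genes lay above control in the B16 lung and 13 of 21 in the LLC lung, with medians of 0.04 and 0.06; the shares of all genes were 49.3% and 49.9%.

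**Figure D2:**
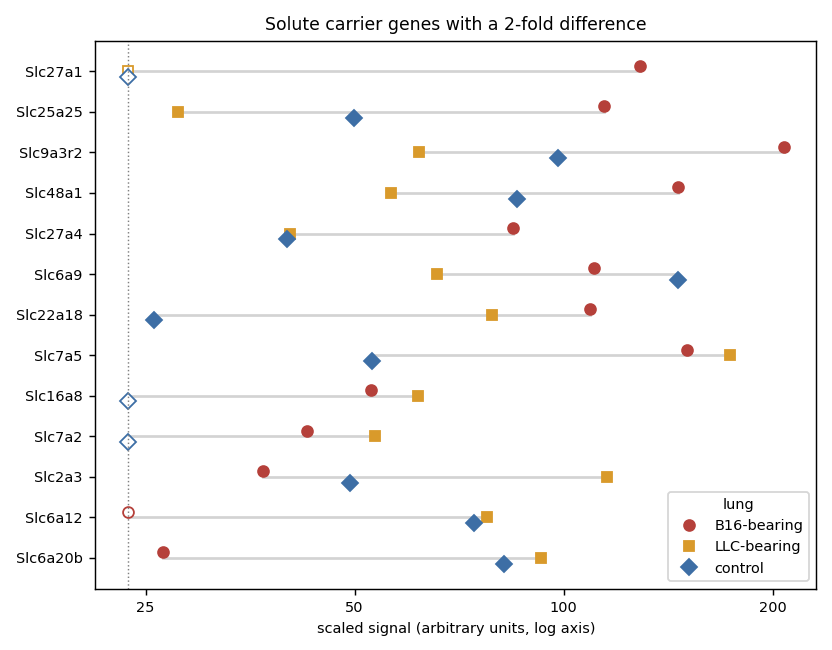
Scaled signal (x axis, log scale, arbitrary units) of the 13 solute carrier genes with a difference of at least 2-fold between any 2 arrays and a brighter signal of at least 50, ordered by the B16 minus LLC difference. Circles are the B16, squares the LLC and diamonds the control lung, 1 array each, and open symbols on the dotted line lie below the floor of 23.6; Slc7a5, Slc22a18, Slc16a8 and Slc7a2 have both tumour-bearing lungs to the right of control, while Slc27a1, Slc25a25, Slc9a3r2, Slc48a1 and Slc27a4 have the B16 lung alone at the right.

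Of the sugar carriers, Slc2a3 was the gene that differed. It encodes GLUT3, a glucose carrier known from neurons, platelets and leukocytes, and had signals of 36.9 in the B16, 115 in the LLC and 49.3 in the control lung. The LLC lung was therefore the high one, 2.34-fold above control (1.23) and 3.13-fold above the B16 lung (−1.64 for B16 minus LLC). With the floor at the 60th percentile these differences were 0.70 and −0.70, and with a floor of 100 they were 0.21 and −0.21. The other probe set for it gave signals of 13.3, 16.1 and 13.3, all under the floor. Leukocyte markers moved in part with it. The summed signal of 14 macrophage and monocyte markers, with values below the floor set to it, was 4076, 6154 and 5306 in the same order, with Adgre1, Marco and Siglec1 below the floor throughout. In the LLC lung 9 of 11 measured were above control, against 49.9% of all genes. Only Ccr2, a chemokine receptor of monocytes, was at least 2-fold above it, at 27.8, 294 and 46.8, against 3.95% of all genes. In the B16 lung 1 of 11 was above the LLC lung, against 47.7%, and this was Msr1 at 179, 120 and 112. For 15 neutrophil markers the sums were 3186, 4812 and 1571, with Ngp, Mmp8 and Ctsg below the floor throughout. Lymphocyte markers had other orders. The sums were 1270, 1389 and 1783 for 12 B lymphocyte markers and 476, 399 and 410 for 12 T lymphocyte markers, of which 3 and 8 were below the floor throughout. The part of these cells in the Slc2a3 difference was not tested. Slc2a1, which encodes the widely expressed glucose carrier GLUT1, had negative signals of −28.0, −30.7 and −28.0, and Slc2a4, the insulin-responsive carrier of muscle and fat, lay below the floor as well. Slc2a8 read 140, 152 and 167, Slc2a5, the fructose carrier, 74.4, 79.2 and 58.3, and Slc50a1, the SWEET-type sugar carrier, 175, 187 and 195, so these 3 stayed within 1.36-fold.

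Mitochondrial carriers of the Slc25 family numbered 20, with 15 above the floor on all arrays. The adenine nucleotide carriers, which exchange ATP of the matrix for cytosolic ADP, read differently. Slc25a4 (ANT1), the form of heart and skeletal muscle, read 555, 596 and 754 in the B16, LLC and control lung, lower in both tumour-bearing lungs by 1.36-fold and 1.27-fold (−0.44 and −0.34). Slc25a5 (ANT2), the form of proliferating cells, read 631, 658 and 358, higher in both by 1.76-fold and 1.84-fold (0.82 and 0.88). Its next probe set, which can bind related sequences, read 427, 389 and 394, and showed no such difference (0.12 and −0.02). Cardiac and skeletal muscle markers moved with Slc25a4. Their summed signal over 21 genes was 1981, 1543 and 3487, and of 15 measured genes 15 were below control in the B16 and 14 in the LLC lung, 10 and 11 of them at least 2-fold; Tnnt3, Acta1, Ckm, Myl2, Myl3 and Ryr2 were below the floor throughout. Of all genes, 49.3% and 49.9% were above control in the B16 and LLC lung, and 4.73% and 2.98% were at least 2-fold lower. The part of muscle cells in the Slc25a4 difference was not tested.

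Slc25a25, which encodes a calcium-regulated carrier of ATP-magnesium and phosphate, was the mitochondrial carrier with the widest range. It read 114 in the B16, 27.8 in the LLC and 49.9 in the control lung. The B16 lung was 2.29-fold above control and the LLC lung 1.79-fold below it (1.19 and −0.84), a 4.11-fold difference between the tumour-bearing lungs (2.04). A floor at the 60th percentile left log2 differences of the B16 lung from both others of 0.68, and a floor of 100 left 0.19. Slc25a3, the mitochondrial phosphate carrier, is a gene of nearly all cells, yet its probe set read 44.4, 23.4 and 48.3, just below the floor in the LLC lung and at least 2.05-fold below control there. It and Slc6a9 were the 2 carriers at least 2-fold lower in the LLC than in the control lung; Slc25a3 is named here after its values were seen. Slc25a44, a carrier of branched-chain amino acids, read 51.4, 51.1 and 28.7, above control in both tumour-bearing lungs by 1.79-fold and 1.78-fold. The other mitochondrial carriers above the floor on all arrays had ratios of highest to lowest signal between 1.10, for Slc25a20, and 1.53, for Slc25a53. Slc25a1, the citrate carrier, read 208, 224 and 204, Slc25a11, the oxoglutarate-malate exchanger, 314, 298 and 278, and Slc25a20, the carnitine-acylcarnitine carrier, 159, 162 and 148. In the B16 lung 9 of 16 measured genes of the class were above control, and in the LLC lung 12 of 17, with medians of 0.04 and 0.14. The shares of all genes above control were 49.3% and 49.9%, with medians of −0.01 and −0.00047.

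A pair of further genes shared the order of Slc25a25, high in the B16 and low in the LLC lung. Slc9a3r2 encodes NHERF2, a PDZ scaffold that ties the sodium-proton exchanger NHE3 to the cytoskeleton, and read 208, 61.9 and 98.1, 2.12-fold above control in the B16 and 1.58-fold below it in the LLC lung (1.08 and −0.66). It was 3.35-fold higher in the B16 than in the LLC lung, and with a floor of 100 still 1.05 on the log2 scale. Slc48a1, which encodes a heme carrier of endosomes and lysosomes, read 146, 56.5 and 85.8, 1.70-fold above and 1.52-fold below control (0.77 and −0.60) and 2.59-fold apart between the tumour-bearing lungs. The 3 genes are the carriers with differences of at least 1.5-fold in opposite directions. How many of all genes meet this rule was not counted, so the 3 are not set against a background. With the floor at the 60th percentile, a signal of 71.3, their LLC differences from control were smaller or had no value. With a floor of 100 these LLC differences had no value. By contrast, Slc9a3r1, the related scaffold NHERF1, was highest in the LLC lung, at 157, 238 and 141.

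To show the sequence in front of genes that shared this order, windows of 250 bases upstream of annotated start sites were taken from RefSeq (build GRCm38.p6), which had entries for 122 of the 148 genes, Slc25a25 and Slc9a3r2 among them; Slc48a1 had none. A search on both strands for the cAMP response element TGACGTCA and for the GC box GGGCGG gave 1 cAMP response element, in 1 of 3 windows of Slc25a25, starting 150 bases before the start site. This motif was in 1.55% of all 32851 windows and in 1.16% of the 173 windows of solute carrier genes; the GC box was in 32.7% and 55.5%. The windows below were chosen for their matches, are on the minus strand of chr2:32424067-32424316 and of chr17:24650306-24650555, and are written 5′ to 3′ with both motifs in capitals; Slc25a25 has 1 GC box and Slc9a3r2 has 4, and these motifs do not overlap each other. A match is a description of the letters and does not show that a factor binds there.
Slc25a25: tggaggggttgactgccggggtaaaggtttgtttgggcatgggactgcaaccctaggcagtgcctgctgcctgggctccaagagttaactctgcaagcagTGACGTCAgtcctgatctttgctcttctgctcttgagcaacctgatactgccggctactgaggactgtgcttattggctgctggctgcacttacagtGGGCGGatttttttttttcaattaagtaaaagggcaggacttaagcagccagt
Slc9a3r2: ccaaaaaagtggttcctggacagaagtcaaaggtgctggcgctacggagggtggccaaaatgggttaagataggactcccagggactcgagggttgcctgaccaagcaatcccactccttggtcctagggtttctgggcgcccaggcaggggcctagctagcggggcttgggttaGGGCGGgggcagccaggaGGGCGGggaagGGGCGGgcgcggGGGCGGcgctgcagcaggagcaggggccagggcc

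Among exchangers of sodium, calcium and protons, Slc9a8, the sodium-proton exchanger NHE8 of the Golgi and apical membranes, read 142, 89.8 and 177, 1.97-fold lower in the LLC lung than in control (−0.98). Slc8a1, the sodium-calcium exchanger of heart and smooth muscle, read 65.8, 85.3 and 83.6. Of the 14 carriers of bicarbonate, chloride and sulfate, 6 lay above the floor on all arrays and 3 on none, and 0 were at least 2-fold apart in any comparison. A count of 0 among so few genes is near the shares of all genes given above. Slc12a2 (NKCC1), which loads airway epithelium with chloride, read 458, 452 and 520, and Slc12a4 (KCC1), a potassium-chloride carrier, 216, 201 and 143, above control in both tumour-bearing lungs by 1.51-fold and 1.41-fold. Slc4a5, a sodium-bicarbonate carrier, read 48.2, 65.6 and 88.0, 1.83-fold and 1.34-fold below control. The 6 genes of this class above the floor on all arrays had a median ratio of highest to lowest signal of 1.16, against 1.34 for all genes.

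Fatty acid transport proteins, which activate and import long-chain fatty acids, differed in the B16 lung. Slc27a1 (FATP1) read 129 there and lay below the floor in the LLC and control lungs, at least 5.46-fold higher than in either. Slc27a4 (FATP4) read 84.7 against 40.4 and 39.9, 2.12-fold above control and 2.10-fold above the LLC lung. With the floor at the 60th percentile these differences from control were 0.86 and 0.25. With a floor of 100 that of Slc27a1 was 0.37, and Slc27a4 had no value, as all its signals were lower. The other 3 members were at or under 37.1 on all arrays: Slc27a5, the bile acid-activating form of liver, read 37.1 in the control lung and was below the floor in both others, and Slc27a2 and Slc27a3 were below it throughout. Adipocyte markers, 10 genes of which 5 were measured, had summed signals of 1050, 1041 and 1034, with Pparg, Retn, Ucp1, Cidea and Cidec below the floor throughout. In the B16 lung 1 of the 5 was at least 2-fold above and 2 were at least 2-fold below control, against 3.23% and 4.73% of all genes. The part of adipocytes in the fatty acid carriers' differences was not tested.

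All 16 metal ion carriers were above the floor on at least 1 array and 0 differed by 2-fold in any comparison; a range of at least 2-fold was found in 10.2% of all genes, so that 0 of 16 is near the background. Slc11a2 (DMT1), an iron importer, read 584, 608 and 485, and Slc39a8 (ZIP8), an importer of zinc and manganese, 403, 513 and 593, 1.47-fold lower in the B16 lung than in control. Slc11a1 (Nramp1), a metal carrier of phagosomes in macrophages and neutrophils, read 74.7, 66.9 and 37.8, above control by 1.98-fold and 1.77-fold, and was the metal carrier nearest to 2-fold. Neutrophil markers were above control as well, 12 of 12 measured in the B16 and 11 of 12 in the LLC lung, with the sums given above. Of the macrophage and monocyte markers, 3 of 11 measured were above control in the B16 and 9 of 11 in the LLC lung. The shares of all genes were 49.3% and 49.9%. The part of these cells in the Slc11a1 difference was not tested. The zinc exporter Slc30a1 and the zinc importer Slc39a4 had opposite orders in the tumour-bearing lungs. Slc30a1 read 54.1, 103 and 84.8, while Slc39a4 read 370, 193 and 240, each 1.91-fold apart between the B16 and LLC lung. The second probe set of Slc39a4 read 248, 201 and 214, with the same order and a smaller difference. Slc30a3, the zinc carrier of synaptic vesicles, read 405, 345 and 315, while its second probe set was below 0 on all arrays. The copper importer Slc31a1 read 248, 277 and 291.

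Slc22a18, an imprinted gene that encodes an organic cation carrier, had the largest difference from control of the genes above the floor on all arrays. It read 109 in the B16, 79.0 in the LLC and 25.7 in the control lung, which is just over the floor. The B16 lung was 4.25-fold and the LLC lung 3.07-fold above it (2.09 and 1.62). Under a floor at the 60th percentile they were 0.62 and 0.15. With a floor of 100 the B16 difference was 0.13, and the LLC lung had no value. Slc16a8 (MCT3), a lactate carrier known from the retinal pigment epithelium, read 52.7 and 61.8 in the B16 and LLC lung and 19.8, under the floor, in the control lung, so that they exceeded it at least 2.23-fold and 2.62-fold. Slc10a6, which carries sulfated steroids, read 346, 290 and 205, above control by 1.69-fold and 1.42-fold. Slc16a1 (MCT1), the common lactate carrier, was below the floor on all arrays. Slc22a12, the urate carrier of kidney, read 156, 171 and 162, and Slc22a5 (OCTN2), a carnitine importer, 62.3, 31.7 and 51.5. Slc66a2, whose family was in none of the classes, read 185, 204 and 142.

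Among carriers of nucleosides, nucleotide sugars, phosphate and vitamins, Slc48a1 alone differed by 2-fold in a comparison. Slc29a1 (ENT1), which takes up adenosine, read 369, 366 and 306, and Slc20a1 (PiT1), a phosphate importer, 63.5, 71.3 and 67.7. Slc35a1, which brings CMP-sialic acid into the Golgi, read 42.5, 44.2 and 79.2, 1.86-fold and 1.79-fold below control. Slc23a2 (SVCT2), a vitamin C importer, read 368, 309 and 331, and Slc44a4, a choline carrier-like protein of epithelia, 310, 271 and 237. Slc44a2, of the same family, had the opposite order of the tumour-bearing lungs, at 169, 274 and 251. All 3 genes from the families classed as vesicular and lysosomal carriers, Slc17a1, Slc18a3 and Slc32a1, lay below the floor throughout. The class was set by family, and it does not give the place of each member in the cell.

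**Figure D3:**
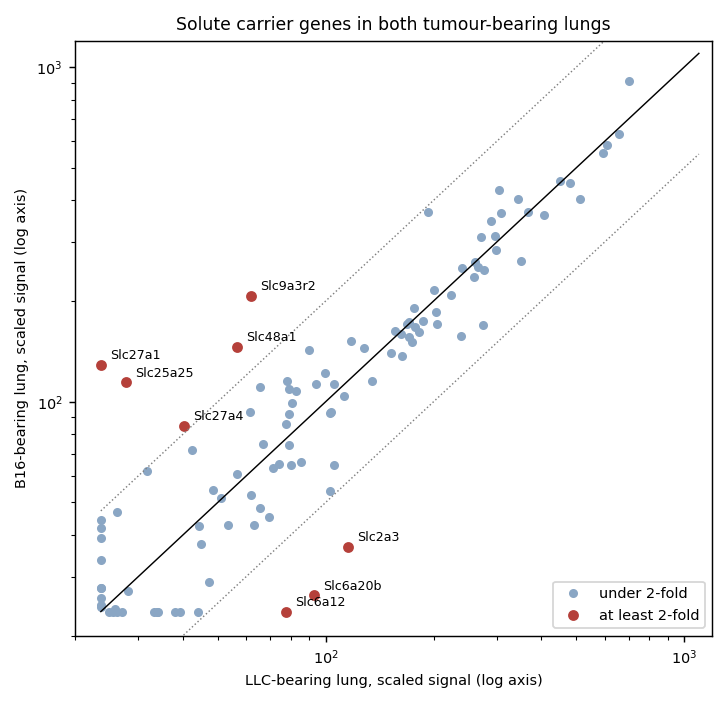
Scaled signals of the 110 solute carrier genes measured in the LLC (x axis) and B16 lung (y axis), both on log scales in arbitrary units, with values below the floor drawn at it. The solid line marks equality and dotted lines 2-fold; Slc27a1, Slc25a25, Slc9a3r2, Slc48a1 and Slc27a4 lie above the upper dotted line and Slc6a20b, Slc6a12 and Slc2a3 below the lower one.

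The comparison of the tumour-bearing lungs with each other does not involve the control array beyond scaling, the floor and the choice of probe set. The robust SD of the carriers' log2 differences was 0.34 there, against 0.42 for all genes. The 5 carriers at least 2-fold higher in the B16 lung were Slc27a1, Slc25a25, Slc9a3r2, Slc48a1 and Slc27a4, and the 3 lower were Slc6a20b, Slc6a12 and Slc2a3. With the floor at the 60th percentile, Slc9a3r2 (1.54) and Slc48a1 (1.04) were the 2 still at least 2-fold apart. Vitamin, choline, urea and heme carriers had a median of 0.25, with 6 of 7 measured genes higher in the B16 lung, and mitochondrial carriers a median of −0.10, with 5 of 17 higher. Of all measured genes, 47.7% were higher in the B16 lung.

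Hepatocyte genes stood out in the LLC lung, and the carriers best known from liver were read with that in view, a choice made after the values were seen. The summed signal of 15 hepatocyte markers was 604 in the B16, 5518 in the LLC and 709 in the control lung, with Ttr and Apoh below the floor throughout. Of 13 measured, 12 were at least 2-fold above control in the LLC lung, against 3.95% of all genes. Much of the sum came from a few genes: in the LLC lung Alb, serum albumin, read 1327, Mup5 1293 and Mup3 830. Slc10a1, the bile acid importer NTCP, read 4.15 there, Slc2a2, the liver glucose carrier GLUT2, 15.7, Slc27a5 21.0, Slc27a2 0.20 and Slc17a1 8.60, all below the floor. Slc25a47, a mitochondrial carrier of liver, read 33.2 in the LLC lung and was below the floor in both others, at least 1.41-fold higher, and Slc38a4, an amino acid carrier of liver, read 93.5, 61.4 and 58.9. Of these 7 genes only Slc25a47 had an LLC signal above the floor and above both other lungs. Kidney tubule markers, 11 genes, had sums of 353, 424 and 366, and 3, 5 and 3 of them were above the floor. The list holds the carriers Slc12a1, Slc12a3, Slc34a1 and Slc22a6, so it is not independent of the genes described here. Slc34a1 was above the floor in all lungs, Slc12a3 in the B16 lung alone and Slc12a1 in the LLC lung alone. Kap read 61.4 in the LLC lung and was below the floor in both others. It was the 1 marker of this list at least 2-fold above control there. Most markers of lung cells were above the floor in all 3 samples, with sums of 12960, 12620 and 11496 for 6 type 2 alveolar, 8874, 7735 and 7951 for 5 type 1 alveolar and 8947, 8219 and 7915 for 11 endothelial genes. For 7 club and airway genes the sums were 11005, 11123 and 11174. Among these, Krt5 and Krt15 of basal cells were below the floor throughout, and Cbr2, a carbonyl reductase of club cells, read 70.0, 52.5 and 782, which is 11.2-fold and 14.9-fold below control.

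Genes that work beside the solute carriers were compared from fixed lists. Of all genes, 3.23% were at least 2-fold higher and 4.73% lower in the B16 lung than in control. In the LLC lung these shares were 3.95% and 2.98%, and in the B16 against the LLC lung 3.41% and 4.95%. Counts of 0 or 1 in lists as short as those below are near these shares. Of the sodium pump subunits and their FXYD regulators, 8 were on the array and 5 measured, with 0 at least 2-fold apart in any comparison; Atp1b1, a beta subunit, read 230, 185 and 144, and Atp1b3 887, 993 and 958. Of the partner and scaffold proteins of carriers, 11 were on the array and 10 measured, also with 0 at 2-fold. Bsg, or basigin, which takes lactate carriers to the cell surface, read 631, 535 and 686. Of the ion and water channels of epithelia, 10 were on the array and 0 reached 2-fold. Aqp1, the water channel of endothelium, read 1242, 810 and 781, 1.59-fold above control in the B16 lung. ABC transporters, which use ATP directly, numbered 27 on the array. Of 15 measured in the B16 lung and 16 in the LLC lung, 1 was at least 2-fold higher and 0 lower in each; it was Abcb4, a phospholipid exporter, at 140, 143 and 70.0. Of the organic anion transporting polypeptides, 2 were on the array, and Slco3a1 read 244, 205 and 209.

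A second probe set checks a gene's value on the same arrays. Of the 148 genes, 29 had more than 1 probe set, and between 11 and 13 of these had a second one measured in a comparison. The sign of the difference was the same on both probe sets for 7 of 11 genes in the B16 lung against control, 7 of 13 in the LLC lung against control and 7 of 13 between the tumour-bearing lungs. The median gap between the probe sets was 0.42, 0.37 and 0.52 on the log2 scale. The widest gaps were those of Slc30a5 (1.18), a zinc carrier of the Golgi, Slc25a5 (0.90) and Slc6a6 (1.37) in these comparisons. Among the 13 genes plotted with a 2-fold difference, Slc2a3 alone had a second probe set, and it was below the floor.

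**Figure D4:**
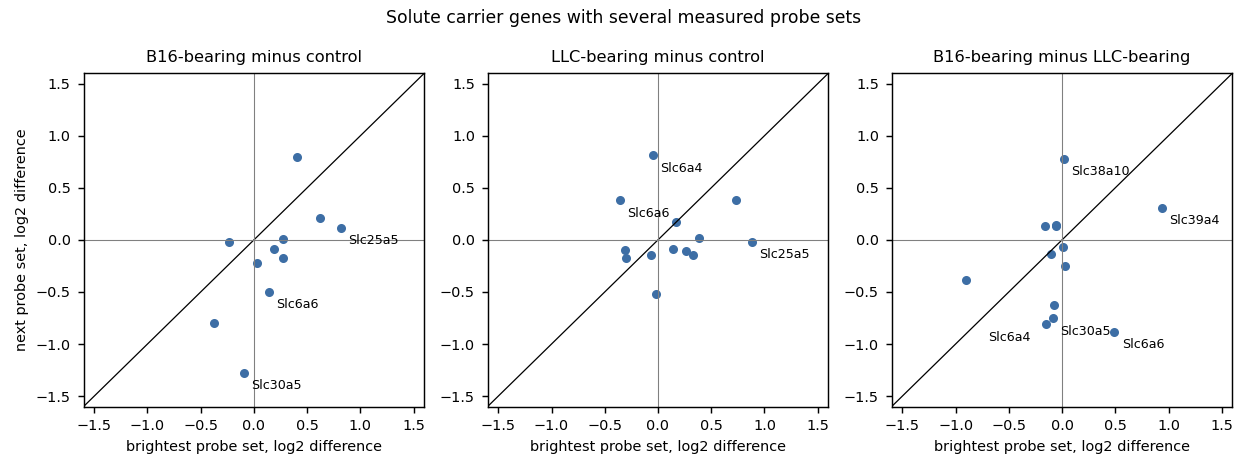
Log2 difference on the brightest probe set (x axis) and on the next measured probe set (y axis) of solute carrier genes with several probe sets, for the 3 comparisons. Each point is 1 gene and the line marks equality; Slc30a5, Slc25a5 and Slc6a6 lie far from it in the B16 against control, LLC against control and B16 against LLC panels.

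Genes below the floor on all arrays included carriers of other tissues and carriers of nearly all cells. Slc6a3 and Slc6a2, the dopamine and noradrenaline carriers, Slc18a3 and Slc32a1, the vesicular carriers of acetylcholine and GABA, Slc22a6, the organic anion carrier of kidney, and Slc5a1, the intestinal glucose carrier, were all below it. So were Slc2a1, Slc16a1, Slc7a1 and Slc25a10, which many cells use, and 8 of 31 amino acid and 5 of 11 sugar carriers in all. A value below the floor therefore gives no level for the gene.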

How the data were processed

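Lung RNA of 3 samples was hybridised to 1 Affymetrix mouse expression array each; per the labels' protocols, total RNA was isolated with TRIzol and made into biotinylated cRNA. The deposited values are intensities on a linear scale, background-subtracted as the values below 0 show (20.2% to 21.0% of values). For the array software and the authors' scaling, nothing is given in the sources used here. The mean without the lowest and highest 2% was 100.1 in each deposited column.

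Of 12488 probe sets, 66 controls were left out. Of the other 12422, GEO's platform annotation gave 10833 a single symbol; the symbols of all 148 members matched a RefSeq gene table (GRCm38.p6) by gene ID. Of several probe sets for a gene, the one with the highest mean signal was taken. Arrays were multiplied by 1 factor (0.987, 1.01 and 1) that set the median log2 ratio to control to 0 over probe sets with a mean above the median and positive signals on all arrays. The floor, "measured" and "at least" are as defined in the report. Calculations used Python 3.11.15, pandas 2.3.3 and NumPy 2.4.6, and the steps were tested on simulated data. No statistical test is possible with 1 array per group.

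The members, the 15 classes and the 18 gene lists were chosen with earlier results of these data known. Named are carriers at least 2-fold apart in a comparison with a brighter signal of at least 50, the 10 of highest mean signal, the one of highest mean in each class, and those at least 1.5-fold apart from control in opposite directions; other carriers were chosen after their values were seen, to describe their class. Alternatives varied the scaling, the floor and the probe set of a gene.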

Additional observations from a re-analysis of the deposited data

Results flagged for a closer look

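The B16 and LLC lung lay on opposite sides of the control lung, each by at least 1.5-fold, for 3 genes. The share of all genes that meet this rule was not counted. The log2 differences were 1.19 and −0.84 for Slc25a25, 1.08 and −0.66 for Slc9a3r2 and 0.77 and −0.60 for Slc48a1, the B16 lung first. With 1 array per group the difference was not tested, and each gene has 1 probe set.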

How the results depend on the processing

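The floor was the choice that moved the counts. With it at the 60th percentile of all values, carriers at least 2-fold higher and lower numbered 2 and 0 in the B16 lung against control, 1 and 1 in the LLC lung against control, and 2 and 0 in the B16 against the LLC lung. With a floor at a signal of 100 they numbered 1 and 0, 0 and 0, and 1 and 0, the 1 gene being the scaffold gene Slc9a3r2 both times. A floor at the 20th percentile was not run, because that percentile is below 0 (−0.51). Other scalings (values as deposited, the median of all probe sets above the floor, quantile) and other probe sets (the mean of all of a gene, or the brightest of standard design) left each count within 1.5 times. Over the alternatives run, the carriers' median log2 difference lay between 0.03 and 0.12 for the B16 lung against control, between 0.05 and 0.08 for the LLC lung against control, and between −0.06 and 0.02 for the B16 against the LLC lung, where it was above 0 under quantile scaling (0.02) and with the floor at the 60th percentile (0.0023), so that this median has no settled sign. Of 611 values of named carriers under the alternatives, 582 moved by less than 0.42 on the log2 scale, and 29 moved by more. All 29 were under the higher floors, and 0.42 is the robust SD between the tumour-bearing lungs. Many of the 582 could not move, so their number is no measure of stability. A gene with 1 probe set keeps its value under the probe set alternatives. A gene above a higher floor on all arrays keeps its value there. Values with both signals below a higher floor were left out of the 611. Of the differences of at least 2-fold, 0 changed sign, but a floor cannot reverse a sign, so the floors did not test this. No paired analysis was possible because each group has 1 sample. Signal over background limits the dim carriers, and 1 array per group limits all of them.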
